A study of Mus musculus with 30 samples.

Results

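The germ cells described here were enriched from testes of mice at 16 days post partum (dpp), and the comparison sets 5 Prdm9-/- animals (called mutant) against 5 animals labelled Prdm9+/- or Prdm9+/+ (called non-mutant). These are all 10 libraries of that age, of 30 in the series, which also holds 10 libraries of 8 dpp and 10 of 12 dpp. The mutant libraries come from 5 litters, numbered 2, 4, 5, 6 and 7 in the header of the deposited table, and each has a litter mate among the non-mutants: a heterozygote (+/-) in litters 2, 6 and 7 and a wild-type animal (+/+) in litters 4 and 5. All animals were male C57BL/6J with less than 10% 129S1/SvImJ. The labels do not say which lesion the mutant allele carries, and each library is 1 animal. Seminiferous tubules were digested with Liberase and washed to remove interstitial cells, and polyadenylated RNA was sequenced.

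Prdm9 is a histone methyltransferase made only in early meiosis, where it marks the sites at which programmed DNA breaks are placed. In mouse spermatocytes without it, breaks form at other sites, homologous chromosomes pair poorly, and cells arrest around the pachytene stage. Pachytene is the stage at which paired chromosomes are fully joined, a large set of genes for the later sperm is switched on, and the X and Y chromosomes are silenced. At 16 dpp the first wave of normal spermatocytes has entered pachytene.

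Values are TPM, a unit that fixes the total of every library, so depths are unknown. Fold changes are log2 differences of log2(TPM + 1), mutant over non-mutant within litters, which understates the change of low genes. They carry a standard error (SE), and a row was called when limma's Benjamini-Hochberg adjusted p over all 17761 rows tested was under 0.05. A row was tested when it was over 1 TPM in at least 5 of the 10 libraries. Lists of TPM run in the order of litters 2, 4, 5, 6 and 7 in both genotypes, so values in the same place are litter mates. Germ cell genes were high in every library, with Sycp3, a protein of the chromosome axis, at 293 to 464 TPM in mutants and 345 to 485 TPM in non-mutants. Sertoli cells, the somatic cells of the tubule, also gave much RNA. Their secreted protein Clu averaged 4706 ± 425 TPM in mutants and 4549 ± 162 TPM in non-mutants (SD, n = 5 each), and the 20 Sertoli genes of the marker list summed to 10500 to 12160 TPM in mutants and 10050 to 12020 TPM in non-mutants.

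The 5 non-mutant libraries were not alike, and this touches every result on late spermatocyte genes. Summed over the 29 measured genes of the pachytene and diplotene list, the mutants had 976, 994, 906, 899 and 1137 TPM. The non-mutants had 1212 TPM in litter 2, 1655 and 1720 TPM in litters 4 and 5, and 3108 and 3769 TPM in litters 6 and 7. The +/- animal of litter 2 therefore stood nearest to the mutants, the 2 +/+ animals in the middle and the other 2 +/- animals highest. Among the 419 rows that fell in mutants, the +/- animal of litter 2 was the lowest of the non-mutants in 311 (74.2%) and the +/- animal of litter 7 the highest in 365 (87.1%), against 12.5% and 21.8% of all rows tested. The mutants showed less of this order: the mutant of litter 7 was their highest in 42.0% of fallen rows and in 19.7% of all rows. The median SD of log2(TPM + 1) over the fallen rows was 0.22 among mutants and 0.67 among non-mutants, while over all rows it was 0.17 and 0.20. The fallen rows are low in mutants by selection, with a median level of 3.03 TPM there and 15.6 TPM in non-mutants. This scale narrows the spread of low values, so the 0.22 and 0.67 are not on equal terms. Over all rows tested the order was another. The +/+ animal of litter 5 was the lowest non-mutant in 39.5% and the +/- animal of litter 2 the highest in 39.5%. The median level was 13.8 TPM in that +/+ animal and 14.7 to 15.9 TPM in the other non-mutants. Its autosomal rows summed to 679100 TPM, against 720200 to 761600 TPM in the others. What part these orders have in the differences between genotypes was not tested, and the counts below are given with and without these litters. In bulk RNA, fewer cells of a type and less RNA per cell cannot be told apart.

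Prdm9 itself (ENSMUSG00000051977, chromosome 17, 15543079 to 15564354, GRCm38) was lower in mutants but far from absent. It had 10.9, 6.89, 9.78, 12.8 and 9.68 TPM in mutants, against 23.4, 34.4, 21.3, 26.4 and 19.7 TPM in non-mutants. The groups did not overlap, and the level did not follow the order of the pachytene genes among the non-mutants. The log2 fold change was -1.24 (SE 0.177, limma adjusted p = 0.0148). It was no longer called without either animal of litter 5 or without the +/- animal of litter 6, at log2 fold changes of -1.29 and -1.30. Transcript that remains in a mutant does not tell which part of the gene was altered, since the table gives 1 value per gene.

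Across all rows, mutants had strongly lower levels of genes of later spermatocytes and sperm and modestly higher levels of many other rows, among which X- and Y-linked genes were frequent. Of 17761 rows 752 (4.23%) were called: 419 fell (2.36%) and 333 rose (1.87%). The fallen count includes 79 of the 84 tested rows that were at or under 1 TPM in every mutant. Those 84 passed the filter only through the non-mutants. In the other direction 10 rows were at or under 1 TPM in every non-mutant, and 3 of them rose. With median-ratio scaling the calls were 512 fallen and 161 risen, so that 23.9% of calls were risen in place of 44.3%, and with quantile normalization 513 fell and 229 rose (30.9% risen). The fallen rows had a median log2 fold change of -1.27, and 267 of them passed 1 and 44 passed 3 in size. The risen rows had a median of 0.43, 28 of them passed 1, and 216 were under 0.5. All rows tested had a median of 0.08. Mutant and non-mutant values did not overlap in 329 of the fallen and 150 of the risen rows. Over all rows tested the mutants lay below every non-mutant in 446 (2.51%) and above every non-mutant in 396 (2.23%). Over the fallen rows the median of the mean levels was 3.03 TPM in mutants and 15.6 TPM in non-mutants at 16 dpp, after 2.42 TPM in mutants and 2.33 TPM in non-mutants at 12 dpp. Over the risen rows it was 28 TPM in mutants and 19.3 TPM in non-mutants at 16 dpp, after 21.1 and 21.3 TPM at 12 dpp.

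The number of calls rested on the set of litters. Leaving out 1 library also takes its mate out of the paired comparison. The count was 868 without the mutant and 733 without the +/- animal of litter 2. It was 260 without the mutant and 173 without the +/+ animal of litter 4, and 62 and 49 for litter 5. For litter 6 it was 139 without the mutant and 92 without the +/- animal, and for litter 7 it was 250 and 128. Without both animals of litter 2, 764 rows were called, 427 fallen and 337 risen. Without litters 6 and 7, the 2 litters with the highest pachytene transcripts in the non-mutant, 104 were called, 82 fallen and 22 risen. Of the called rows, 418 of the 419 fallen and 332 of the 333 risen had the same sign in all 5 litters, so that leaving out a litter could hardly turn them.

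Ldhc, the germ line lactate dehydrogenase, had the largest fall among the genes named by rule, with 3.73, 5.30, 3.20, 4.31 and 6.09 TPM in mutants, against 42.0, 156, 174, 464 and 602 TPM in non-mutants. The highest mutant was thus far below the lowest non-mutant, and most of the variation lay among the non-mutants. Its log2 fold change was -5.21 (SE 0.437, limma adjusted p = 0.00312). Piwil1, which binds the piRNAs of pachytene cells, had 3.82, 3.70, 2.64, 3.89 and 2.39 TPM in mutants, against 18.9, 44.4, 45.4, 109 and 135 TPM in non-mutants (-3.76, SE 0.400, limma adjusted p = 0.00665). Zmynd10, which helps to assemble axonemal dyneins, had 1.85, 1.0, 1.38, 1.17 and 2.74 TPM in mutants, against 12.1, 21.8, 26.6, 66.6 and 75.7 TPM in non-mutants (-3.71, SE 0.340, limma adjusted p = 0.00470). The same litter order is seen in all 3 genes among non-mutants and in none of them among mutants.

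The promoters of Ldhc and Piwil1, of the pachytene list, and of the axoneme genes Zmynd10, Spag6l and Cfap206 are shown because 3 families of regulators of spermatocyte genes have short known motifs. The windows run from 250 bases before to 50 bases after the RefSeq start (GRCm38.p6) and read 5′ to 3′ on the gene's strand. Capitals mark matches on either strand to the MYB site TAACTG and its variants CAACTG, ending in the same letters, TAACGG with a changed end, and CAACGG with both changes, to the core of the RFX site (GGCAAC) or to the core of the cAMP response element (TGACGT), and matches may share letters.
Ldhc, chr7:46861013-46861312, plus strand: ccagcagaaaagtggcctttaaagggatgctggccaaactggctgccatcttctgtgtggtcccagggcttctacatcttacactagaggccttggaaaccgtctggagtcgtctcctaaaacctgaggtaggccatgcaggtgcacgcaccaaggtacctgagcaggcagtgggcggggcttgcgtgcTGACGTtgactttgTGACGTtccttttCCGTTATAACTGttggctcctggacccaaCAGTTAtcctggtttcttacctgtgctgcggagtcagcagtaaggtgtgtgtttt
Piwil1, chr5:128735996-128736295, plus strand: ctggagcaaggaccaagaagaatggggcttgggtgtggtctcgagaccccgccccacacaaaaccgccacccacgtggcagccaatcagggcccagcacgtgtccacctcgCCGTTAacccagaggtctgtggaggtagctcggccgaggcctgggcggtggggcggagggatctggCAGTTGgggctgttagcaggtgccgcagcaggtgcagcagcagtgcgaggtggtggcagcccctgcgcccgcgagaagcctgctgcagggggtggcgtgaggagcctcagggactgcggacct
Zmynd10, chr9:107547054-107547353, plus strand: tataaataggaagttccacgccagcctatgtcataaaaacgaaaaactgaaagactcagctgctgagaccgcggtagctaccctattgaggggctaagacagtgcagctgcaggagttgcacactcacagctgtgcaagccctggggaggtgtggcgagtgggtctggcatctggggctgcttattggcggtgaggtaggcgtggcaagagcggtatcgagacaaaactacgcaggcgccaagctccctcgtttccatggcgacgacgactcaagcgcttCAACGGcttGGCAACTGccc
Spag6l, chr16:16829314-16829613, minus strand: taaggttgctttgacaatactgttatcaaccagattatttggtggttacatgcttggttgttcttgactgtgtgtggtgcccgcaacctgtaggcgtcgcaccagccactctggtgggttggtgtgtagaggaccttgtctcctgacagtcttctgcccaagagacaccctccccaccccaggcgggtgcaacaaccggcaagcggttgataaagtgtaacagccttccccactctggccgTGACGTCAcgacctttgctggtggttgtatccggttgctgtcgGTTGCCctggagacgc
Cfap206, chr4:34730157-34730456, minus strand: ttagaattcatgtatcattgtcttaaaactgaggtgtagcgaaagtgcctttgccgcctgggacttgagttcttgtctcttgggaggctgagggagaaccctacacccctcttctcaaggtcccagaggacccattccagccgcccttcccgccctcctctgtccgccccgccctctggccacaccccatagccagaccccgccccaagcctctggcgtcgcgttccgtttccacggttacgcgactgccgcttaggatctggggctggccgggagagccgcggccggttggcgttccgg
The Ldhc window holds 3 MYB sites beside 2 cAMP response cores, the Piwil1 window 2 MYB sites, and the Zmynd10 window 2 MYB sites, 1 of which overlaps its 1 RFX core. The Spag6l window holds 0 MYB sites, 1 RFX core and 2 cAMP response cores, which are overlapping matches on the 2 strands of 1 stretch, TGACGTCA. The Cfap206 window holds none of the 3 motifs. A window matched by symbol was found for 276 of the fallen genes, 226 of the risen and 11004 of all genes tested. A MYB site was present in 44.2% of the windows of fallen genes, 27.9% of those of risen genes and 25% of all. The RFX core was present in 26.4% of fallen, 11.5% of risen and 12.8% of all, and the cAMP response core in 9.78%, 8.85% and 11.7%. The median GC content was 57.0% in fallen, 58.0% in risen and 61.0% in all windows. Such matches are short, are a description of these windows, and do not show that a factor binds.

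Among the 12 genes with the largest falls by rule was also Mroh4, a protein of unassigned role, which had 0.52, 1.17, 1.04, 1.12 and 1.37 TPM in mutants, against 22.5, 39.2, 41.5, 93.3 and 138 TPM in non-mutants (-4.78, SE 0.278, limma adjusted p = 0.000911). Fabp9, a lipid carrier of germ cells, had 7.66, 14.7, 11.9, 11.8 and 19.4 TPM in mutants, against 76.8, 130.1, 136, 337 and 416 TPM in non-mutants (-3.74, SE 0.243, limma adjusted p = 0.00107). Smpd5, a sphingomyelin phosphodiesterase, averaged 0.762 ± 0.276 TPM in mutants and 27.1 ± 18.5 TPM in non-mutants (SD, n = 5 each; -3.74). Fabp9 kept some level in mutants, whereas Mroh4 and Smpd5 were near 1 TPM there. The others were Fbp1, the gluconeogenic enzyme fructose bisphosphatase (-4.25), Adam5, a sperm surface protein (-3.96), Cetn1, a centrin of the basal body (-3.81), Hrasls5, a phospholipid acyltransferase (-3.78), Spink2, a protease inhibitor of the acrosome (-3.68), and Crisp2, a secretory protein of acrosome and tail (-3.65). Fbp1, Adam5 and Hrasls5 were under 1 TPM in every mutant and passed the filter only through the non-mutants. In Crisp2 the +/- animal of litter 2 was close to its mutant mate, with 3.79 TPM in the mutant and 7.27 TPM in the +/- animal, while in litter 7 the mutant had 3.82 TPM and the +/- animal 147 TPM. Of the 72 called genes named by rule at 16 dpp, 59 were still tested without the +/+ animal of litter 5 and 42 of these lost their call, and 52 of the 72 lost it without the mutant of litter 5.

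**Figure D1:**
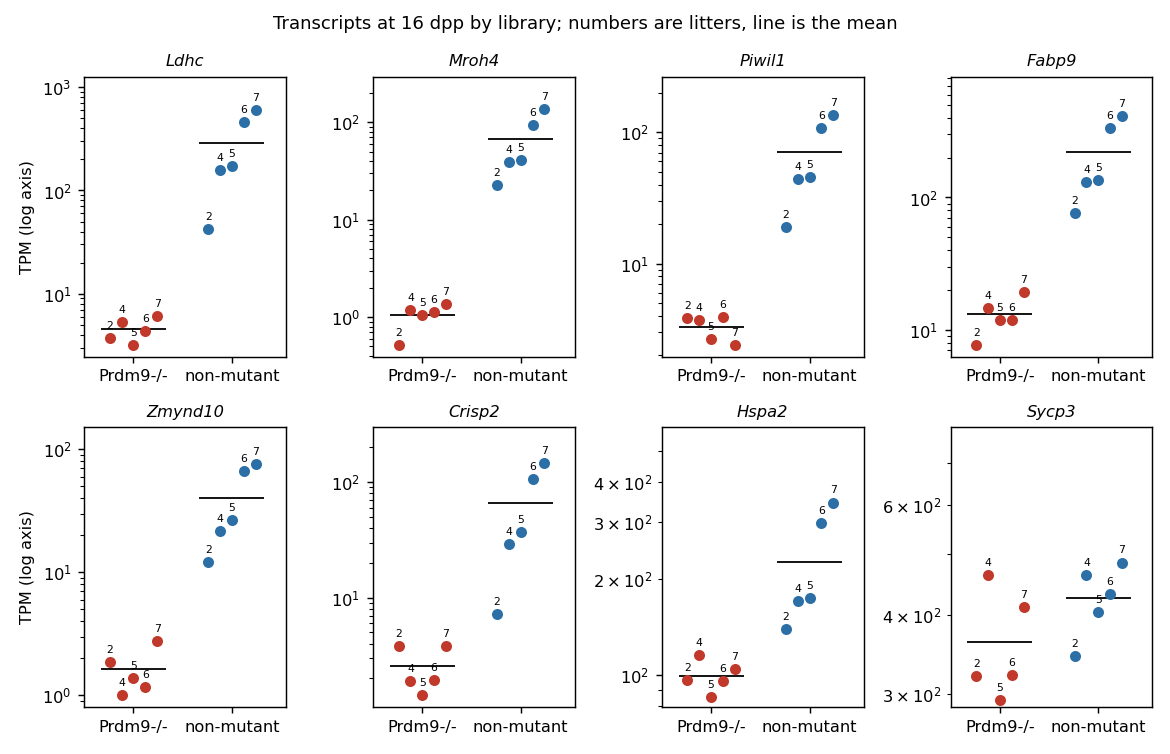
TPM (log axis) of 8 genes at 16 dpp, with each point 1 library, the number beside it its litter, red points Prdm9-/- and blue points non-mutant, and a black line at the mean. In Ldhc the 5 mutants lie between 3.20 and 6.09 TPM while the non-mutants climb with litter number over the range 42.0 to 602 TPM; Sycp3, shown for contrast, overlaps between genotypes.

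The list of 30 pachytene and diplotene genes had 23 members tested, of which 17 fell, 0 rose and 6 were not called, with a median of -1.96. Of the 23, 2 were at or under 1 TPM in every mutant and so passed the filter only through the non-mutants, and both are among the 17 fallen. The size of the fall differed within the list. Hspa2, the heat shock protein that spermatocytes need to leave prophase, kept a good level, with 96.6, 116, 85.2, 95.4 and 104 TPM in mutants, against 139, 170, 174, 297 and 346 TPM in non-mutants (-1.09, SE 0.187, limma adjusted p = 0.0248). Clgn, a chaperone of sperm membrane proteins, averaged 19.9 ± 2.73 TPM in mutants and 87.7 ± 43.5 TPM in non-mutants (SD, n = 5 each; -1.95, limma adjusted p = 0.0129). Dkkl1, an acrosomal protein, had 4.55, 4.58, 4.81, 4.91 and 5.70 TPM in mutants, against 13.3, 34.3, 44.8, 118 and 155 TPM in non-mutants (-3.17, SE 0.420, limma adjusted p = 0.0129). Hspa2 and Clgn thus kept more of their level in mutants than Dkkl1 did. Some members did not reach the filter and were not tested: Pgk2, the autosomal phosphoglycerate kinase, had 0.00 to 0.43 TPM in mutants and 0.10, 1.27, 1.99, 7.10 and 10.0 TPM in non-mutants, and Ccna1, the cyclin of late prophase, 0.00 to 0.66 TPM in mutants and 0.20 to 5.63 TPM in non-mutants. The number of fallen members was 17 without the +/- animal and 19 without the mutant of litter 2, 13 without the +/+ animal and 15 without the mutant of litter 4, 2 and 3 in the same order for litter 5, 9 and 10 for litter 6, and 11 and 15 for litter 7.

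Genes of the axoneme, the microtubule core of the flagellum, moved in the same direction. Of 71 listed genes 46 were tested, 25 fell, 0 rose and 21 were not called, with a median of -1.41; 10 of the 46 were at or under 1 TPM in every mutant, and those 10 are among the fallen. Without the +/+ animal of litter 5 only 1 of 35 members tested was called, and without litters 6 and 7 the median was -0.47 with 7 of 31 fallen. The filter still asked for 5 libraries in these fits, so members at or under 1 TPM in every mutant could not be tested there. These results and the median of -1.41 thus cover different sets of genes. Spag6l, a central apparatus protein, had 0.09, 0.41, 0.47, 0.52 and 0.98 TPM in mutants, against 4.39, 7.5, 10.7, 27.2 and 36.8 TPM in non-mutants (-3.27, SE 0.305, limma adjusted p = 0.00470). Cfap65 had 0.66 to 0.86 TPM in mutants and 5.27 to 30.9 TPM in non-mutants (-2.93, limma adjusted p = 0.00716), and Cfap206, a radial spoke protein, 0.75 to 1.53 TPM in mutants and 5.69 to 57.9 TPM in non-mutants (-3.42, limma adjusted p = 0.00911). The fallen members included dynein heavy chains (Dnah1 at -1.17, Dnah8 at -2.30 and Dnah17 at -1.99), the radial spoke gene Rsph1 (-1.43), the tektin gene Tekt1 (-3.22), the nexin-dynein regulatory gene Drc1 (-1.84) and the ruler gene Ccdc39 (-1.68).

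Sperm surface and acrosome genes were mostly too low to test. Of 22 ADAM genes, membrane proteins of the sperm surface, 4 were tested and 3 fell, of which Adam5 and Adam32 were under 1 TPM in every mutant and passed the filter only through the non-mutants. The fallen genes were Adam5 above, Adam2, with 1.23 to 2.93 TPM in mutants and 7.41 to 64.2 TPM in non-mutants (-3.15, SE 0.372, limma adjusted p = 0.00944), and Adam32, with 0.07 to 0.86 TPM in mutants and 1.96 to 44.0 TPM in non-mutants (-3.31, limma adjusted p = 0.0288). Adam3 was not tested, and had 0.00 to 0.41 TPM in mutants and 0.28, 2.13, 2.70, 10.2 and 24.2 TPM in non-mutants. Of 26 acrosome genes 13 were tested, 7 fell and 0 rose (median -0.997). Of the 7 fallen genes, 1 was at or under 1 TPM in every mutant. Acr, the acrosomal protease acrosin, was at 0.00 TPM in 3 mutants and at 0.12 and 0.11 TPM in the other two, against 2.04, 3.65, 3.52, 9.97 and 14.97 TPM in non-mutants (-2.63, SE 0.335, limma adjusted p = 0.0113). Without either animal of litter 5, 0 acrosome members were called. The list of 18 spermatid genes, for the stage after meiosis, had 5 members tested and 0 called (median 0.12), and its summed level was 89.7 to 106 TPM in mutants and 91.5 to 186 TPM in non-mutants.

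**Figure D2:**
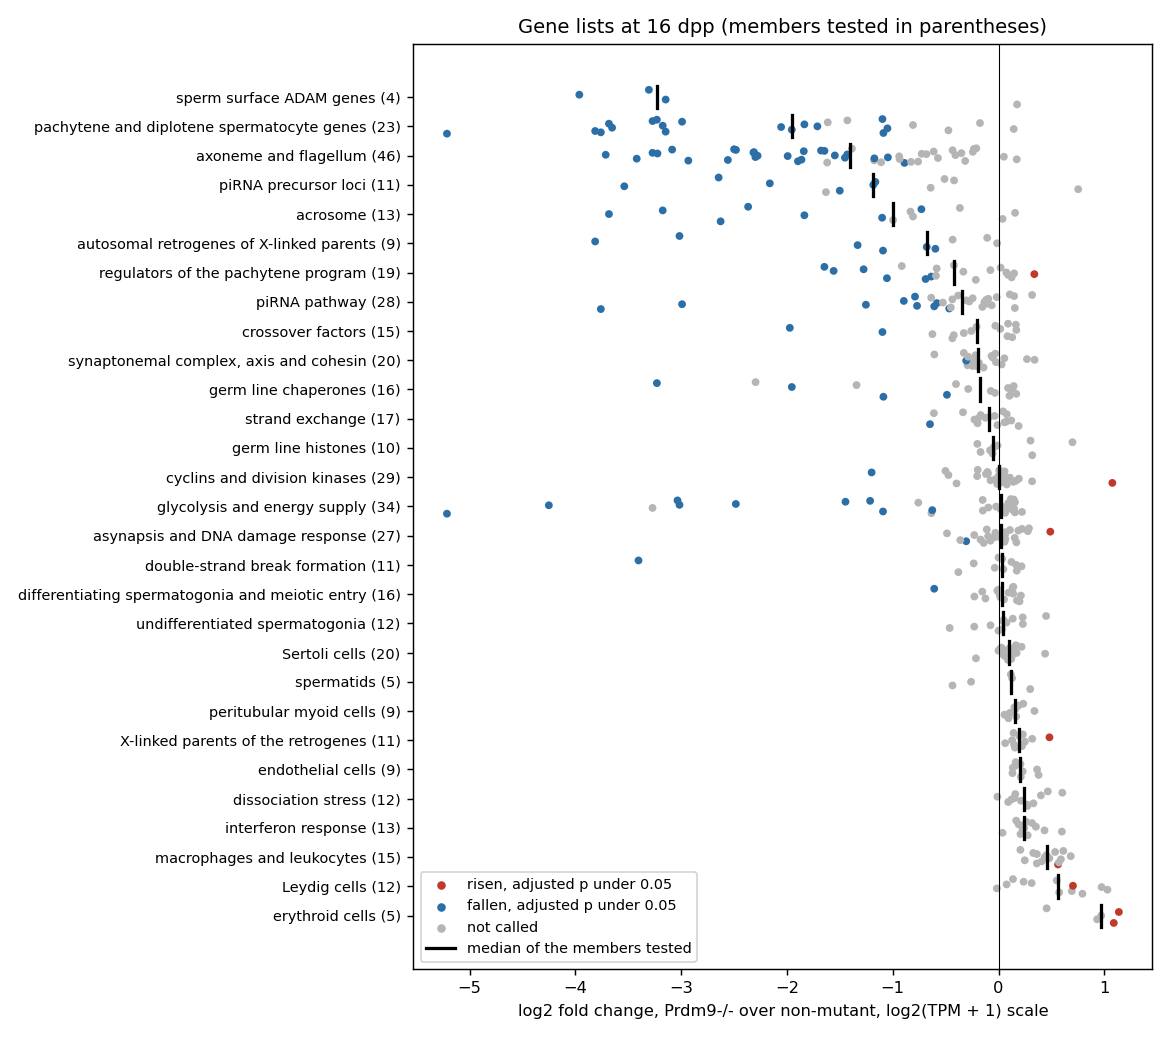
Log2 fold change (mutant over non-mutant, log2(TPM + 1) scale) of each tested member of the gene lists, 1 row per list with the number tested in parentheses, ordered by the list median (black line); red members rose, blue fell and grey were not called. The ADAM, pachytene and axoneme lists have medians of -3.23, -1.96 and -1.41, while the Leydig and erythroid lists lie on the other side of 0.

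The piRNA pathway makes the small RNAs that silence transposons and, in pachytene, come from long precursor loci. Of its 30 genes 28 were tested, 9 fell and 0 rose (median -0.34). Of the 9 fallen genes, 1 was at or under 1 TPM in every mutant. Piwil1 and Tdrd6, a tudor protein of the chromatoid body with 0.23 to 0.72 TPM in mutants and 3.30 to 40.9 TPM in non-mutants (-2.99, limma adjusted p = 0.0171), fell most. Tdrd5, a tudor protein of germ granules, had 22.2, 19.5, 14.2, 16.5 and 15.6 TPM in mutants, against 31.6, 35.2, 35.9, 57.9 and 62.6 TPM in non-mutants (-1.25, SE 0.201, limma adjusted p = 0.0210). Piwil2 and Ddx4, which spermatogonia express too, had smaller changes. Piwil2 averaged 98.7 ± 13.2 TPM in mutants and 137 ± 21.01 TPM in non-mutants (SD, n = 5 each; -0.47, limma adjusted p = 0.0374, or 0.0590 without the block of litters), and the RNA helicase Ddx4 149 ± 13.9 TPM in mutants and 230.0 ± 42.8 TPM in non-mutants (-0.61, limma adjusted p = 0.0161). Of 105 piRNA precursor loci 11 were tested, 6 fell and 0 rose (median -1.18). Of the 6 fallen loci, 3 were at or under 1 TPM in every mutant and passed the filter only through the non-mutants. The locus with the smallest p, on chromosome 8, had 0.43 to 1.25 TPM in mutants and 5.10, 7.76, 8.28, 16.3 and 20.3 TPM in non-mutants (-2.65, SE 0.225, limma adjusted p = 0.00330). A locus of chromosome 2, which passed the filter only through the non-mutants, was listed at 0 in all 5 mutants and had 1.26 to 6.19 TPM in non-mutants. Without any 1 of the +/+ animal of litter 5, the +/- animal of litter 6, the mutant of litter 5 or the mutant of litter 6 a single pathway gene was called.

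Regulators of the pachytene program did not all move. Of 21 listed genes 19 were tested, 6 fell and 1 rose (median -0.42). Mybl1, the MYB factor that starts the program, had 25.1, 30.5, 24.99, 28.3 and 24.1 TPM in mutants, against 28.9, 32.6, 26.2, 33.8 and 33.8 TPM in non-mutants, and was not called (-0.22, SE 0.074, limma adjusted p = 0.136). Rfx2, the RFX factor of flagellar genes, had 12.5, 9.30, 7.43, 8.31 and 10.95 TPM in mutants, against 16.2, 12.7, 17.01, 28.2 and 39.75 TPM in non-mutants (-1.06, SE 0.222, limma adjusted p = 0.0426, or 0.0570 without the block of litters). Hsf5, a heat shock factor of spermatocytes (-1.56), Ybx2, which stores germ cell mRNA (-1.65), Kctd19, which spermatocytes need at metaphase (-1.28), Tcfl5 (-0.69) and Crem, the cAMP response factor (-0.64), fell with it. The member that rose, Taf7l, a testis subunit of the basal transcription machinery, is X-linked, with 306, 336, 255, 285 and 298 TPM in mutants, against 251, 255, 218, 230.3 and 214 TPM in non-mutants (0.34, SE 0.050, limma adjusted p = 0.0163). Without either animal of litter 5 none of the 6 fallen regulators was called.

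Among genes of glycolysis and energy supply, the fallen members were largely isoforms of the testis. Of 34 tested genes 9 fell and 0 rose, and the list median was 0.02 (-0.04 with median-ratio scaling). Of the 34, 2 were at or under 1 TPM in every mutant, and both are among the fallen. The fallen members were Ldhc, Fbp1, Gk2, the retrogene glycerol kinase (-3.02), Cox8c and Cox6b2, testis subunits of cytochrome oxidase (-3.04 and -1.21), the glucose transporter Slc2a3 (-2.48), the testis cytochrome c gene Cyct (-1.45), Pdha2 (-1.09) and Eno4 (-0.63). Cox8c had 11.7, 11.1, 10.3, 12.2 and 15.2 TPM in mutants, against 38.7, 83.2, 87.2, 190 and 245 TPM in non-mutants (SE 0.299, limma adjusted p = 0.00546). Ldha, the somatic lactate dehydrogenase, was lower in mutants in every litter but not called, at 107 ± 16.4 TPM in mutants and 169.9 ± 47.8 TPM in non-mutants (SD, n = 5 each; -0.63, limma adjusted p = 0.0589). Autosomal retrogenes that stand in for silenced X-linked parents had 6 of 9 tested members fallen and 0 risen (median -0.68). Of the 6, 2 were at or under 1 TPM in every mutant and passed the filter only through the non-mutants. Of the 11 parents 1 rose (9.09%) and 0 fell (median 0.20). This is near the 12.5% risen and the median of 0.20 over all 662 X-linked rows tested. The retrogene Pdha2 had 13.01, 15.5, 10.7, 14.3 and 16.8 TPM in mutants, against 16.3, 26.04, 26.3, 45.9 and 53.3 TPM in non-mutants (limma adjusted p = 0.0264, or 0.0508 without the block of litters). Its X-linked parent Pdha1 averaged 35.0 ± 2.65 TPM in mutants and 30.1 ± 3.98 TPM in non-mutants (0.22, limma adjusted p = 0.144). Without the +/+ animal of litter 5, 2 of 32 energy genes and 0 of 7 retrogenes were called. The list of germ line chaperones had 4 of 16 tested members fallen and 0 risen (median -0.18). These were Hspa2 and Clgn above, Tcp11 (-3.23), and Hspa4l (-0.49), whose call was lost without the block of litters (limma adjusted p = 0.0508). Tcp11 stands on the list as drawn up but is not itself a chaperone.

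The 4 lists of recombination and synapsis genes held 5 fallen members. Of 11 genes listed under double-strand break formation 1 fell, Morc2b, which is not a known break factor. Of 17 of strand exchange 1 fell, of 15 crossover factors 2, and of 20 that build the synaptonemal complex and chromosome axis 1. In each list 0 rose, and 2.36% of all rows fell. The medians in this order were 0.04, -0.09, -0.21 and -0.19 (-0.03, -0.16, -0.28 and -0.26 with median-ratio scaling). Spo11, which cuts the DNA, had 17.6, 18.7, 12.9, 14.8 and 15.6 TPM in mutants, against 17.5, 21.2, 15.9, 25.4 and 26.3 TPM in non-mutants (-0.38, SE 0.122, limma adjusted p = 0.121). Dmc1, the meiotic recombinase, averaged 67.3 ± 12.7 TPM in mutants and 58.3 ± 5.76 TPM in non-mutants (SD, n = 5 each; 0.19, limma adjusted p = 0.129), and Sycp3 362 ± 72.5 TPM in mutants and 426 ± 54.9 TPM in non-mutants (-0.25, limma adjusted p = 0.108). The values of these 3 genes overlapped between the genotypes. Mlh3, a mismatch repair protein at crossovers, was not called (-0.42).

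Morc2b, a MORC family gene that mouse germ cells need in meiotic prophase, had 0.33, 0.08, 0.07, 0.21 and 0.82 TPM in mutants, against 5.22, 9.99, 9.12, 22.1 and 27.2 TPM in non-mutants (-3.40, SE 0.267, limma adjusted p = 0.00312), the largest change in these lists. It was under 1 TPM in every mutant, and without any 1 non-mutant library it no longer passed the filter and was not tested. The crossover factors Cntd1 and 1700102P08Rik had 27.1 ± 4.601 and 16.97 ± 4.15 TPM in mutants, against 61.2 ± 21.3 and 73.8 ± 33.3 TPM in non-mutants (SD, n = 5 each; -1.10 and -1.97, limma adjusted p = 0.0101 and 0.00626). Psmc3ip, a strand exchange cofactor, fell by 0.65 (limma adjusted p = 0.0248) and was no longer called without the block of litters (limma adjusted p = 0.0939). Hormad2, a sensor of unpaired axes, fell by 0.31 (limma adjusted p = 0.0338). That call too was lost without the block (limma adjusted p = 0.240). In the list of 27 asynapsis and DNA damage genes (median 0.03, or -0.03 with median-ratio scaling) Hormad2 fell and 1 member rose, Cdkn1a, the p21 cell cycle inhibitor, with 19.1, 26.1, 31.4, 27.04 and 29.3 TPM in mutants, against 15.6, 16.5, 24.04, 22.3 and 15.2 TPM in non-mutants (0.49, SE 0.104, limma adjusted p = 0.0437). The ranges overlap, and the Cdkn1a call was lost with median-ratio scaling (limma adjusted p = 0.0641) and without the block (limma adjusted p = 0.149). Neither Brca1 (0.06) nor Trp53 (0.15) was called.

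The spermatogonial lists had 1 called gene among them, a share near the 4.23% of all rows. Of 12 tested genes of undifferentiated spermatogonia 0 were called (median 0.05, or -0.02 with median-ratio scaling), and Zbtb16, a factor of stem and progenitor cells, averaged 19.05 ± 5.47 TPM in mutants and 18.95 ± 5.05 TPM in non-mutants (SD, n = 5 each; 0.00, SE 0.067, limma adjusted p = 0.996). Of 16 genes of differentiation and meiotic entry 1 was called, Ddx4, which fell. Kit and Stra8, the receptor of differentiating spermatogonia and the trigger of meiosis, differed by 0.20 and 0.17 and were not called (limma adjusted p = 0.0854 and 0.178). Of 29 cyclins and division kinases 1 rose, Ccnb3, and 1 fell, Pkmyt1, an inhibitory kinase of the cell cycle kinase CDK1, with 11.9, 7.19, 11.5, 7.56 and 5.53 TPM in mutants, against 16.7, 15.2, 20.3, 27.1 and 26.4 TPM in non-mutants (-1.20, SE 0.224, limma adjusted p = 0.0304). The germ line histone list had 10 members tested and 0 called (median -0.05).

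Many of the risen genes were sex-linked. Of 662 X-linked rows 83 rose (12.5%) and 0 fell, and of 13 Y-linked rows 5 rose and 0 fell, where 1.87% of all rows rose and 2.36% fell. The X-linked median was 0.20, or 0.09, 0.18, 0.23, 0.20 and 0.32 within litters 2, 4, 5, 6 and 7, beside -0.01, 0.09, 0.13, 0.06 and 0.08 for all rows. With median-ratio scaling 55 X-linked rows rose and 0 fell (median 0.14), and without the block 42. The number risen fell to 18 and 19 without the +/+ animal or the mutant of litter 4, to 11 and 10 for litter 5, to 19 and 19 for litter 6 and to 16 and 22 for litter 7. On the autosomes 215 of 13829 rows rose and 378 fell (median 0.07). Chromosome 15 had the highest share of fallen rows (4.31%) and chromosome 7 the highest share of risen rows among the autosomes (2.79%).

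**Figure D3:**
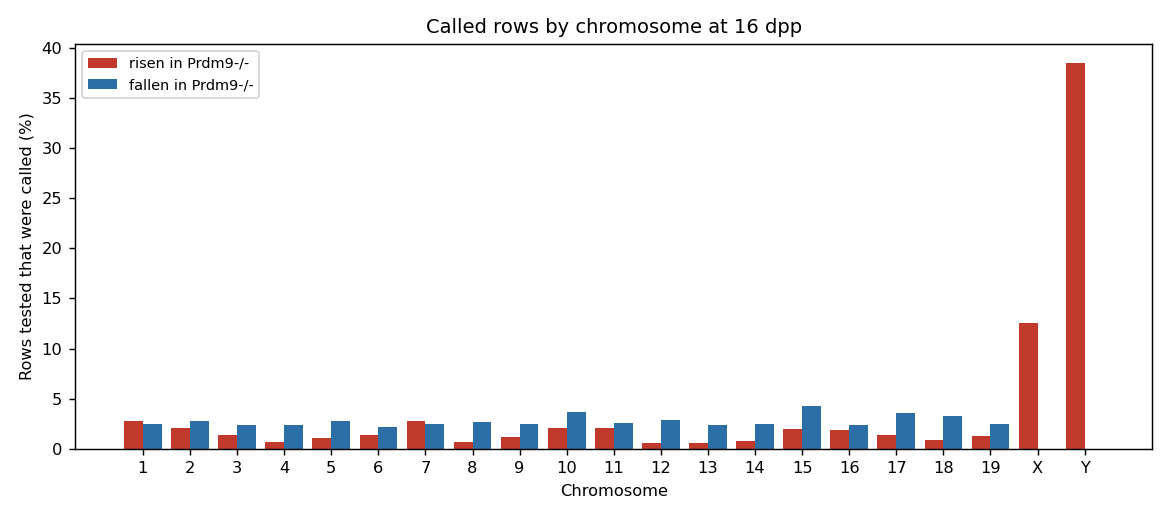
Share of the rows tested on each chromosome (x axis) that rose (red) or fell (blue) in mutants, in percent. The X and Y chromosomes stand at 12.5% and 38.5% risen and 0 fallen, while every autosome has risen and fallen rows; the Y bar rests on 13 rows.

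The X-linked protein-coding gene 1700080O16Rik had the largest rise of all rows and the smallest p among those that rose. It had 25.4, 29.9, 23.65, 24.01 and 32.97 TPM in mutants, against 6.03, 6.43, 5.42, 4.29 and 6.09 TPM in non-mutants (2.08, SE 0.085, limma adjusted p = 0.000178). The groups are far apart and each is tight, without the litter order of the fallen genes, and the gene was called in all 23 alternatives, up to an adjusted p of 0.00672. Ccnb3, a cyclin of meiotic prophase on the X chromosome, had 36.2, 47.4, 25.8, 32.1 and 40.3 TPM in mutants, against 18.6, 15.6, 13.8, 17.4 and 16.9 TPM in non-mutants (1.08, SE 0.110, limma adjusted p = 0.00626). Their promoters are shown as the counterpart to those above, with the same windows and capitals.
1700080O16Rik, chrX:51972723-51973022, minus strand: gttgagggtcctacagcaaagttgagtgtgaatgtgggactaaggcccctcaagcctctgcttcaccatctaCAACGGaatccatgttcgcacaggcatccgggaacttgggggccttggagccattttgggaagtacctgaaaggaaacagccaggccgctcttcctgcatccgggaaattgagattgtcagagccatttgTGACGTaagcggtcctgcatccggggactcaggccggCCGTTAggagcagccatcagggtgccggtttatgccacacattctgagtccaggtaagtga
Ccnb3, chrX:7041570-7041869, minus strand: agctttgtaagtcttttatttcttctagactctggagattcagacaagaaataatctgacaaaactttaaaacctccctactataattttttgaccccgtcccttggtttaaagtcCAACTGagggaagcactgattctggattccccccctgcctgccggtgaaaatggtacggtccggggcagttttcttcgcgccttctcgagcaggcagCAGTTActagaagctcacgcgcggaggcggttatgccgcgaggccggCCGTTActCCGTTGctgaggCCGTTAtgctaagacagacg
The first holds 2 MYB sites and 1 cAMP response core and the second 5 MYB sites. Of 65 risen X-linked genes with a window 40.0% held a MYB site and 10.8% an RFX core. Their median GC content was 53.0%, against 61.0% over the windows of all genes tested. The share over all X-linked genes tested was not computed, so the 40.0% cannot be read as particular to the risen genes.

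Zfy1 and Zfy2, Y-linked zinc finger genes whose expression can kill pachytene cells, rose as well. Zfy2 had 15.1, 24.1, 9.56, 15.2 and 19.04 TPM in mutants, against 6.73, 5.34, 4.95, 6.54 and 6.12 TPM in non-mutants (1.29, SE 0.162, limma adjusted p = 0.0107). Zfy1 had 11.7, 17.02, 8.31, 12.4 and 12.8 TPM in mutants, against 5.39, 4.99, 5.55, 5.56 and 5.37 TPM in non-mutants (1.05, SE 0.145, limma adjusted p = 0.0141). In both genes the mutants of litters 4 and 5 were the highest and the lowest, and the non-mutants hardly varied. Usp9y (0.64) and Uba1y (0.24, and limma adjusted p = 0.0541 with median-ratio scaling), a deubiquitinase and a ubiquitin-activating enzyme of the Y chromosome, rose by less, and their ranges overlapped, and without the block neither was called (limma adjusted p = 0.0767 and 0.233). Zfy1 and Zfy2 are close copies, and how reads were divided between them is uncertain.

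Other X-linked genes rose too. Scml1, annotated here as a lincRNA, had 21.95, 38.5, 20.6, 20.3 and 29.4 TPM in mutants, against 10.2, 10.5, 7.6, 13.8 and 13.5 TPM in non-mutants (1.15, SE 0.158, limma adjusted p = 0.0139). Pet2 had 34.3, 43.8, 29.9, 36.9 and 41.1 TPM in mutants, against 19.5, 16.7, 16.4, 18.5 and 16.0 TPM in non-mutants (1.04, SE 0.0998, limma adjusted p = 0.00470). Otud6a, a deubiquitinase (0.88), and Prame, a cancer-testis antigen (0.91), followed. None of these 4 genes overlapped between the genotypes. Of 8 Rhox2 homeobox genes 7 rose and 0 fell, with log2 fold changes of 0.65 to 0.99 over the 8, and Rhox2d had 6.77, 6.41, 7.56, 6.21 and 7.72 TPM in mutants, against 2.82, 2.94, 2.59, 2.71 and 3.99 TPM in non-mutants (SE 0.105, limma adjusted p = 0.00665). These are near-identical copies, so they are not independent and their single values are uncertain. Of the 9 other Rhox genes tested 0 were called (median 0.21). Of 21 Mage genes 5 rose and 0 fell (median 0.41). Rbmx, an RNA binding protein and parent of a retrogene, had 31.4, 34.4, 34.8, 31.4 and 33.5 TPM in mutants, against 27.2, 22.2, 22.01, 25.99 and 20.3 TPM in non-mutants (0.48, SE 0.090, limma adjusted p = 0.0304), whereas Pgk1 (0.15) and Rpl10 (0.06), other X-linked parents, were not called. Fthl17-ps3, a pseudogene of a ferritin family, rose by 1.40 (limma adjusted p = 0.00470). Chosen after its values were seen, Cypt1, a gene named for the cysteine-rich perinuclear theca of sperm, was listed at 0 in all 5 non-mutants and had 1.71, 1.02, 1.43, 1.28 and 1.38 TPM in mutants.

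**Figure D4:**
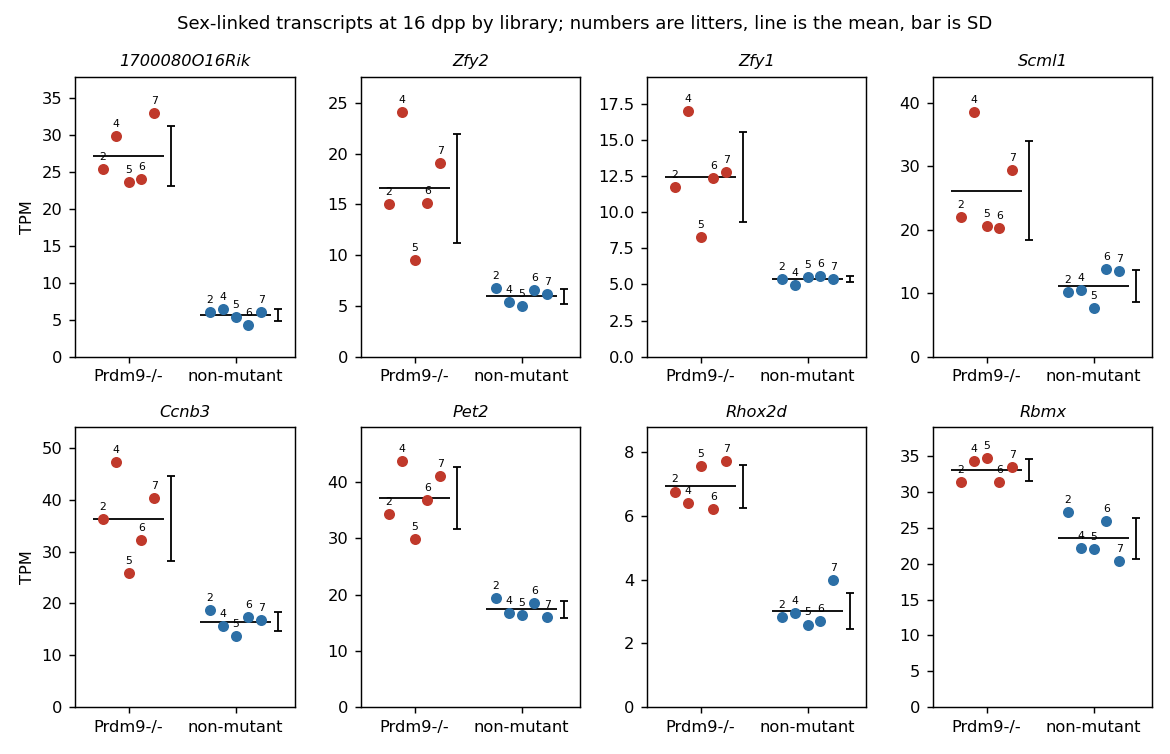
TPM of 8 X- and Y-linked genes at 16 dpp, with each point 1 library, the number beside it its litter, red points Prdm9-/- and blue points non-mutant, a black line at the mean and a bar for the SD. For 1700080O16Rik the mutants span 23.65 to 32.97 TPM and the non-mutants 4.29 to 6.43 TPM; no gene shown overlaps between the genotypes.

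Autosomal risers were few among the named genes, and several belong to cell types outside the tubule. Srgap1, a GTPase activating protein, had 4.02, 4.69, 3.95, 3.78 and 4.82 TPM in mutants, against 2.25, 1.52, 2.11, 1.48 and 1.25 TPM in non-mutants (0.96, SE 0.143, limma adjusted p = 0.0169). The globin genes Hba-a2 and Hbb-bs of red cells differed by 1.14 and 1.09 (limma adjusted p = 0.0303 and 0.0360). Hba-a2 had 134, 65.5, 241, 81.9 and 257 TPM in mutants, against 67.3, 34.8, 155, 43.4 and 52.0 TPM in non-mutants. Every mutant was above its mate, but the groups overlapped, the spread between animals was wide, and without the block neither globin gene was called (limma adjusted p = 0.241 and 0.335), nor Hbb-bs with median-ratio scaling (0.0505). Copies of each globin gene are near-identical, so their single values are uncertain. Ifi27l2a, an interferon-inducible gene, rose by 0.94 (limma adjusted p = 0.0287), a call lost without the block (limma adjusted p = 0.113).

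Some markers of cells outside the tubule were higher in mutants, though few were called and the sums overlapped between genotypes, and their part in the other results was not tested. The sum of the 12 Leydig genes was 300 to 639 TPM in mutants and 187 to 495 TPM in non-mutants (12 tested, 1 risen, median 0.56). The sum of the 15 macrophage and leukocyte genes was 187 to 348 TPM in mutants and 134 to 265 TPM in non-mutants (15 tested, 1 risen, median 0.45). The sum of the 7 erythroid genes was 191 to 720.1 TPM in mutants and 94.3 to 463 TPM in non-mutants (5 tested, 2 risen, median 0.97). Within litters these 3 medians were above 0 in all 5. Lhcgr, the Leydig cell receptor of luteinizing hormone, had 5.25, 7.94, 6.09, 6.86 and 6.58 TPM in mutants, against 3.61, 4.12, 4.49, 3.31 and 2.69 TPM in non-mutants (0.70, SE 0.128, limma adjusted p = 0.0289). Insl3, the defining Leydig hormone, differed by 0.97 but was not called (limma adjusted p = 0.0599), and Star, a steroidogenic carrier, by -0.02. Cd68 of macrophages rose by 0.56 (limma adjusted p = 0.0322), and that call was lost without the block (limma adjusted p = 0.243). Sertoli genes had 0 of 20 called (median 0.10), with Sox9 at 69.0 ± 10.4 TPM in mutants and 64.7 ± 8.00 TPM in non-mutants (SD, n = 5 each). Peritubular myoid, endothelial, dissociation stress and interferon lists had 0 called and medians of 0.16, 0.21, 0.24 and 0.24.

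To ask whether these differences belong to 16 dpp, the mutant effect at that age was set against the effect at the earlier ages in a single fit of all 30 libraries with litter as a block. By limma in this fit the genotypes differed in 0 rows at 8 dpp, 0 at 12 dpp and 1037 at 16 dpp. At an unadjusted p under 0.05 the counts were 899 at 8 dpp, 456 at 12 dpp and 3808 at 16 dpp. Of 20021 rows, 356 (1.78%) had an effect at 16 dpp that differed from that at 12 dpp, 309 lower and 47 higher, and 416 (2.08%) an effect that differed from that at 8 dpp, 349 lower and 67 higher. The difference from 12 dpp was -4.81 for Ldhc (SE 0.470, limma adjusted p = 1.86e-05), -4.29 for Mroh4 (limma adjusted p = 2.76e-06), -4.14 for Fbp1, -3.92 for Adam5 and -3.73 for Smpd5. Ldhc had 1.76 ± 1.58 TPM in mutants and 2.35 ± 1.08 TPM in non-mutants at 12 dpp (SD, n = 5 each), so both genotypes were low at that age. Morc2b likewise had 0.024 TPM in mutants and 0.09 TPM in non-mutants at 12 dpp, and its effect differed by -3.32 (limma adjusted p = 4.67e-06). Of 23 pachytene genes 16, of 47 axoneme genes 24 and of 13 piRNA loci 6 were lower, with 0 higher in each. These are largely the calls of 16 dpp over again. Of the 356 rows 309 (86.8%) were also called at 16 dpp, and of the 416 rows 329 (79.1%), all with the same sign. Mroh4, Fbp1 and Adam5 averaged under 1 TPM in both genotypes at 12 dpp, so their differences are close to their effects at 16 dpp.

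Among the genes with higher effects at 16 dpp than at 12 dpp were Zfy2 (difference 1.202, SE 0.264, limma adjusted p = 0.0225), Zfy1 (1.13, SE 0.246), Pet2 (1.13, SE 0.269), Prame (1.05, SE 0.194) and the autosomal gene Ecm1, an extracellular matrix protein (0.98, SE 0.221). 1700080O16Rik had a mean of 4.28 TPM in mutants and 4.43 TPM in non-mutants at 12 dpp, and its effect differed by 2.15 (SE 0.360, limma adjusted p = 0.00257). Its level in non-mutants at 16 dpp, 5.65 ± 0.844 TPM (SD, n = 5), was near that of 12 dpp, and it was the mutants that stood higher, at 27.2 ± 4.08 TPM (SD, n = 5). Zfy2 and Pet2 had the same order of means: at 16 dpp Zfy2 averaged 16.6 TPM in mutants and 5.94 TPM in non-mutants, after 3.4 TPM in mutants and 3.21 TPM in non-mutants at 12 dpp. Pet2 averaged 37.2 TPM in mutants and 17.4 TPM in non-mutants at 16 dpp, after 13.2 TPM in mutants and 13.99 TPM in non-mutants at 12 dpp. For Ccnb3 (0.99, limma adjusted p = 0.228) and Scml1 (0.88, limma adjusted p = 0.152) the difference between the ages was not called. Of 711 X-linked rows 12 were higher and 0 lower against 12 dpp, and 22 higher and 0 lower against 8 dpp. In litter 13 of 12 dpp Prdm9 was at 19.2 TPM in the library labelled -/- and at 9.16 TPM in the library labelled +/-, against their labels, and without that litter 253 rows differed, 229 lower and 24 higher. Prdm9 itself had an effect that differed from that at 8 dpp (-1.79, limma adjusted p = 0.0327). At 8 dpp its mean was higher in mutants, at 7.23 TPM against 4.80 TPM in non-mutants, a log2 fold change of 0.55 that was not called. The effect on Prdm9 at 16 dpp was not called as different from that at 12 dpp (-0.33, limma adjusted p = 0.825, or 0.15 and 0.917 without litter 13). Without that litter the effect on Prdm9 at 12 dpp was -1.39 (SE 0.219, limma adjusted p = 0.0956), and the differences of Zfy2 (1.06, limma adjusted p = 0.0733) and Pet2 (1.11, limma adjusted p = 0.0926) from 12 dpp were no longer called. The count against 12 dpp was 204 without the +/+ animal of litter 5, 133 and 131 without the +/- animals of litters 6 and 7, and 209 and 207 without their mutant mates. Against 8 dpp these counts were 247, 164, 168, 242 and 249.

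**Figure D5:**
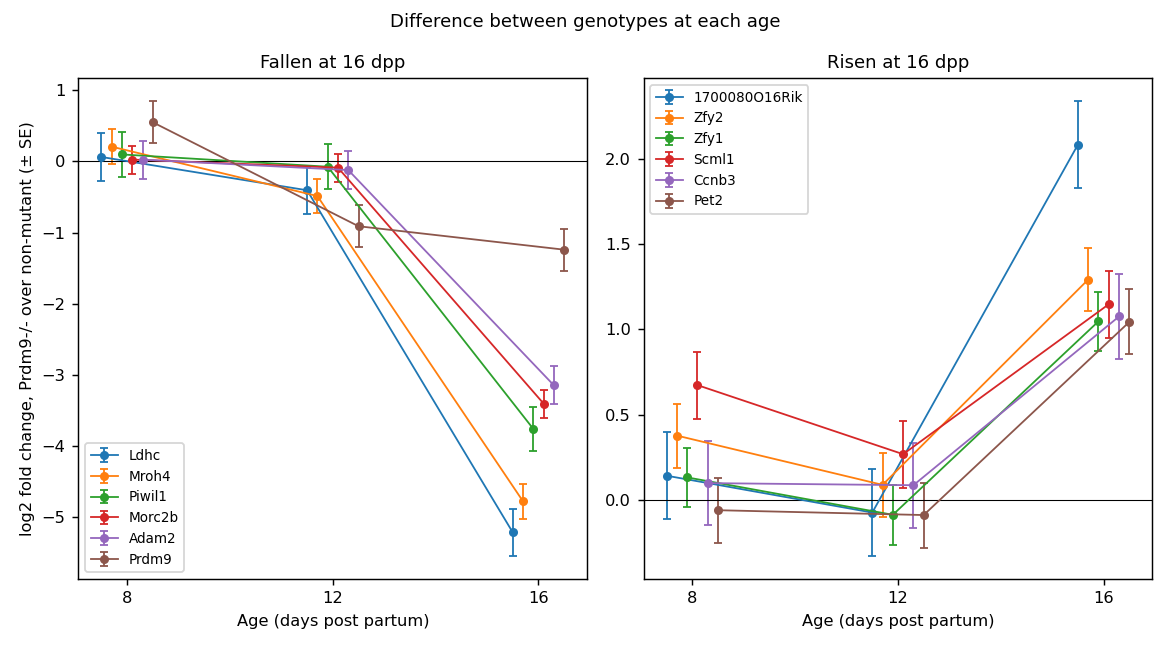
Log2 fold change of mutants over non-mutants (± SE, fit of 30 libraries with litter as a block) at 8, 12 and 16 dpp (x axis) for 6 genes that fell and 6 that rose at 16 dpp. At 16 dpp Ldhc reaches -5.21 and 1700080O16Rik 2.08, while at 12 dpp they stand at -0.40 and -0.07; Prdm9 is at -0.91 at 12 dpp, or -1.39 without litter 13.

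Since the non-mutant group joins 2 genotypes, the 3 +/- libraries of 16 dpp were set against the 2 +/+ libraries. Of 17761 rows 0 (0%) were called by limma, although 1720 had an unadjusted p under 0.05, and the median over all rows was 0.12. The pachytene sum was 1212, 3108 and 3769 TPM in +/- animals and 1655 and 1720 TPM in +/+ animals, so the +/- group held both the lowest and the highest non-mutant. Without the +/- animal of litter 2 the count was 307, of which 302 were higher and 5 lower in +/- animals. With only 2 +/+ animals, both of other litters than the +/- animals, genotype and litter cannot be told apart here. In a fit without the block of litters, which called 405 rows against all 5 non-mutants, the mutants had 30 called rows against the 2 +/+ libraries alone, 17 fallen and 13 risen, and 560 against the 3 +/- libraries alone, 491 fallen and 69 risen.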

How the data were processed

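RNA was measured in 30 libraries, 10 of them of 16 dpp. The deposited table holds TPM per gene or locus, 1 column per library. The submitters' processing notes list Bowtie 1.0.0, RSEM 1.2.8, mm10 and GRCm38 without roles, and use of strand is not given in the sources used here. The table used here holds 65534 rows, including 26523 NONCODE genes and 105 piRNA loci, and lacks 3.57% to 3.81% of the TPM total. TPM keeps no depth, so no counting interval can be given. Genotype, age and replicate come from the labels and litter from the file header. Libraries are separate animals.

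Tests used limma 3.58.1 in R 4.3.3 on log2(TPM + 1) with a mean-variance trend and litter as a fixed block, for rows over 1 TPM in at least 5 of the 10 libraries, with Benjamini-Hochberg adjustment over all rows. A trial on simulated data gave both genotypes the same spread, unlike the fallen rows here, so it does not vouch for those rows. The block rests on the litters of the header. After removal of genotype means, litter mates correlated at 0.138 to 0.364 and other pairs at a median of -0.0888. Differences between ages used 1 fit of the 30 libraries with the same block. The genes named were Prdm9, the 12 largest risen and 12 largest fallen called genes with an ordinary symbol, a mean of at least 1 TPM and the same sign in every litter, up to 4 called members per list and direction by p, and key genes of the 28 lists; for other comparisons the 5 highest and 5 lowest. Others were chosen after their values were seen. Members and lists were chosen with earlier results of these data known. Promoters are RefSeq, GRCm38.p6, first window per symbol. Alternatives covered the block, controls, pseudocount, filter, scaling, a fold threshold and leaving out libraries or litters.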

Additional observations from a re-analysis of the deposited data

Results flagged for a closer look

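In 3 of 191 groups of 5 libraries of named genes, 1 library lay outside the other 4 by Dixon's criterion, which chance passes in about 1 group in 20. Cox6b2 had 72.1 TPM in the mutant of litter 7, where the other mutants had 45.4 to 50.5 TPM. Rhox2d had 3.99 TPM in the +/- animal of litter 7, where the other non-mutants had 2.59 to 2.94 TPM. Trp53 had 54.4 TPM in that same +/- animal, where the other non-mutants had 72.6 to 80.1 TPM. The mutant effect at 16 dpp differed from that at 12 dpp in 356 rows and from that at 8 dpp in 416 rows by limma's test of the difference.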

How the results depend on the processing

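No fold change of a called gene named by rule at 16 dpp reversed under the alternatives run. List medians near 0 did change sign in several alternatives. With median-ratio scaling break formation stood at -0.03, asynapsis at -0.03, energy supply at -0.04, undifferentiated spermatogonia at -0.02, differentiation at -0.03 and cyclins at -0.06, against 0.04, 0.03, 0.02, 0.05, 0.04 and 0.01. Against the +/+ libraries strand exchange stood at 0.03, against -0.09. The 752 rows that differed at 16 dpp became 405 without the block of litters (100 risen, 305 fallen), 1298 with litter as a random effect, 30 against the 2 +/+ libraries alone (a fit that also drops the block), 17 when a log2 change of 1 was the threshold, 1 without a filter on low values and 104 without litters 6 and 7, an alternative added after the values were seen. Without 1 library they ranged from 49 to 868. Under the same filter, leaving out libraries or litters also reduced the number of rows tested at 16 dpp. The 356 rows that differed from 12 dpp became 212 with a pseudocount of 0.1, and 131 to 515 without 1 library of 16 dpp. The 416 that differed from 8 dpp became 258 with that pseudocount, and 164 to 576 without 1 library. The 0 rows between +/- and +/+ became 24 without a filter, and 0 to 307 without 1 library. The causes were not tested. Of 72 called genes named by rule, 59 were called without the block of litters, 69 with median-ratio scaling, 71 with quantile normalization, 72 with a pseudocount of 0.1 and 14 against the +/+ libraries alone with no block, and 19 in every fit without 1 library that gave a value. The depth is unknown, so what it limits cannot be stated. With 5 litter pairs an exact permutation test of a single value cannot go below 0.0625, and none is given.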
